A study of Mus musculus with 20 samples.

Results

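Pyramidal cells of the mouse subiculum that project to the target labelled PFC were compared with those that project to the target labelled VHN, in 3 bulk RNA-seq libraries of each. These 6 libraries were chosen by their labels, out of 12 bulk libraries and 20 samples in all. The other bulk libraries, 3 of cells projecting to NA and 3 of cells projecting to RSC, share the model fit and serve as a second pair of populations, and the remaining 8 samples are single cells. By custom PFC stands for prefrontal cortex, NA for nucleus accumbens and RSC for retrosplenial cortex, whereas the labels do not spell out VHN, which is kept as given. Genotype, strain, age, sex and tracer are not given in the sources used here, and no treatment separates the groups. The cells were fluorescent neurons picked by hand from microdissected slices, so a group is a population named by 1 target, and its cells may also reach other targets. Whether the 3 replicates came from separate animals is not stated, and the p-values measure only the spread between these libraries. The comparison asks which genes distinguish subiculum output cells with different targets.

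The subiculum is the main output station of the hippocampal formation, and its pyramidal cells send glutamatergic axons to cortical, striatal, thalamic and hypothalamic regions. Such cells differ in firing pattern, position along the proximal to distal axis next to CA1, and target. A projection neuron is set apart by its transmitter machinery, by the receptors and channels that shape its firing, by the adhesion and guidance proteins that its axon and dendrites carry, and by the transcription factors that maintain its identity. The results below follow these roles.

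The 3 PFC libraries held 10873160, 14019666 and 10777273 gene fragments and the 3 VHN libraries 18063655, 15747769 and 16210121. Levels are CPM, the usual count unit scaled to library depth, with TMM factors, and are listed for replicates 1, 2 and 3 in that order. The pyramidal label was checked against the vesicular glutamate transporter gene Slc17a7, which stood between 513 and 1024 CPM in the 6 libraries. Interneuron marker genes summed to between 2.77 and 7.38 CPM in 5 libraries and to 193 CPM in VHN 3, where Gad2 reached 91.9 CPM and Slc32a1 8.29. The defining markers Gad1 and Slc32a1 were at 0 in the other 5 libraries, and Vip was at 0 in all 6. Oligodendrocyte markers summed to 45.7 to 52.4 CPM in PFC and 79.2 to 177 CPM in VHN, with the highest sum in VHN 2. Astrocyte markers summed to 288 to 399 CPM in PFC and 70.8 to 212 CPM in VHN. Most of the astrocyte sum came from Slc1a2, which neurons also express, and Gfap, Gja1 and Aldh1l1 were at 0 in all 6. Endothelial and mural markers summed to 57.7 to 91.8 CPM in PFC and 2.08 to 23.0 CPM in VHN, mostly Rgs5 except in VHN 1, where Flt1 was above the 1.31 CPM of Rgs5, with Cldn5 and Pdgfrb at 0 throughout. Microglia markers summed to 13.2 to 31.8 CPM in PFC and 4.32 to 40.5 CPM in VHN, with C1qa and Tmem119 at 0. The part of these other cell types in the differences below was not tested. PFC 3 stood apart from the other libraries on principal component 3, which carried 11.4% of the variance. On components 1 and 2 (24.7% and 16.8%) NA 2 lay furthest from 0 of all bulk libraries, at −125 and −165. NA 2 shares the model fit, and its TMM factor was 0.825. With bulk libraries, fewer cells of a kind and less RNA per cell cannot be told apart.

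The stretches upstream of 4 genes described below are shown as examples from both sides. Nts and Adgra1 were higher in VHN, and Kit and Kitl, a receptor and its ligand, were both higher in PFC. Each is the 250 bases before the first annotated start in the RefSeq promoter table (GRCm38.p6), printed along the strand of the gene. Capitals mark matches to the CRE half-site TGACG or the AP-1 motif TGANTCA on either strand, or to TATAAA on the given strand, the letters searched besides the full CRE, TGACGTCA. The TGACG letters also lie inside the full CRE.
Nts at chr10:102490419-102490668, minus strand: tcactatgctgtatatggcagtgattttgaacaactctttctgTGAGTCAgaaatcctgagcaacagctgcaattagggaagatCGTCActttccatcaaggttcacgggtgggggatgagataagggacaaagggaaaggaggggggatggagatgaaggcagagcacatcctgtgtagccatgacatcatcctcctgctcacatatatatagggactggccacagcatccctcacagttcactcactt
Adgra1 at chr7:139833924-139834173, plus strand: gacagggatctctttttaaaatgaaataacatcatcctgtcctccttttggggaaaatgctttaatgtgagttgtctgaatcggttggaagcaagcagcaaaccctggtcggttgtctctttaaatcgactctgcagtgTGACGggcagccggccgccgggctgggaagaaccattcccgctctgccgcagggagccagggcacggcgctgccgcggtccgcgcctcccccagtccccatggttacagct
Kit at chr5:75574737-75574986, plus strand: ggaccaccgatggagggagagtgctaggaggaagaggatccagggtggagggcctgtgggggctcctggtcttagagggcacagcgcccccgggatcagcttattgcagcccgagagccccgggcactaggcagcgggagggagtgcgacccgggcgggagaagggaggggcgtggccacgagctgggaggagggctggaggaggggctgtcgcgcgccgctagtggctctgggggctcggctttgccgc
Kitl at chr10:100015571-100015820, plus strand: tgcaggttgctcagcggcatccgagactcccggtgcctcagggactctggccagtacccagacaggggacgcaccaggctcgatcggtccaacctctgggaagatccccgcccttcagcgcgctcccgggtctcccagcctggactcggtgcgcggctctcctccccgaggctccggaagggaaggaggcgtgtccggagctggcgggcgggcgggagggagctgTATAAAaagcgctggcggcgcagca
The Nts stretch held 1 AP-1 match and, as CGTCA on the printed strand, 1 CRE half-site. The Adgra1 stretch held 1 CRE half-site, the Kitl stretch 1 TATAAA match close to the start, and the Kit stretch no match. Of 32817 promoters of the same length, 17.7% held TGACG, 6.75% the AP-1 motif, 7.6% TATAAA and 1.55% the full CRE. The matches describe letters only.

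PFC and VHN cells differed in 708 of 13916 genes tested, which is 5.09% of them (edgeR quasi-likelihood test, Benjamini-Hochberg adjusted p under 0.05, here termed called). Of these, 336 (2.41% of all genes tested) were higher in PFC and 372 (2.67%) were higher in VHN. The called shares of gene lists below are to be read beside the 5.09% of all genes. The differences were large in both directions. The median absolute log2 fold change was 1.47 among genes higher in PFC, with a middle range of 1.07 to 2.64, and 1.56 among genes higher in VHN, with a middle range of 1.11 to 2.64. A log2 fold change of 4 or more was reached by 52 genes on the PFC side and 59 on the VHN side. In 10 genes of the PFC side all 3 VHN libraries held 0 fragments, and in 23 genes of the VHN side all 3 PFC libraries did. The 3 PFC and 3 VHN libraries did not overlap in 703 of the 708 called genes, and also not in 27.5% of all genes tested. Without VHN 2, 330 genes were called, without VHN 1 358, without PFC 2 393 and without VHN 3 432. Without PFC 1 the count was 513 and without PFC 3 543. Each of these fits also had fewer libraries to test with. Without NA 2, a library that enters through the shared spread, the gene filter and the scaling, 1104 genes were called.

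**Figure D1:**
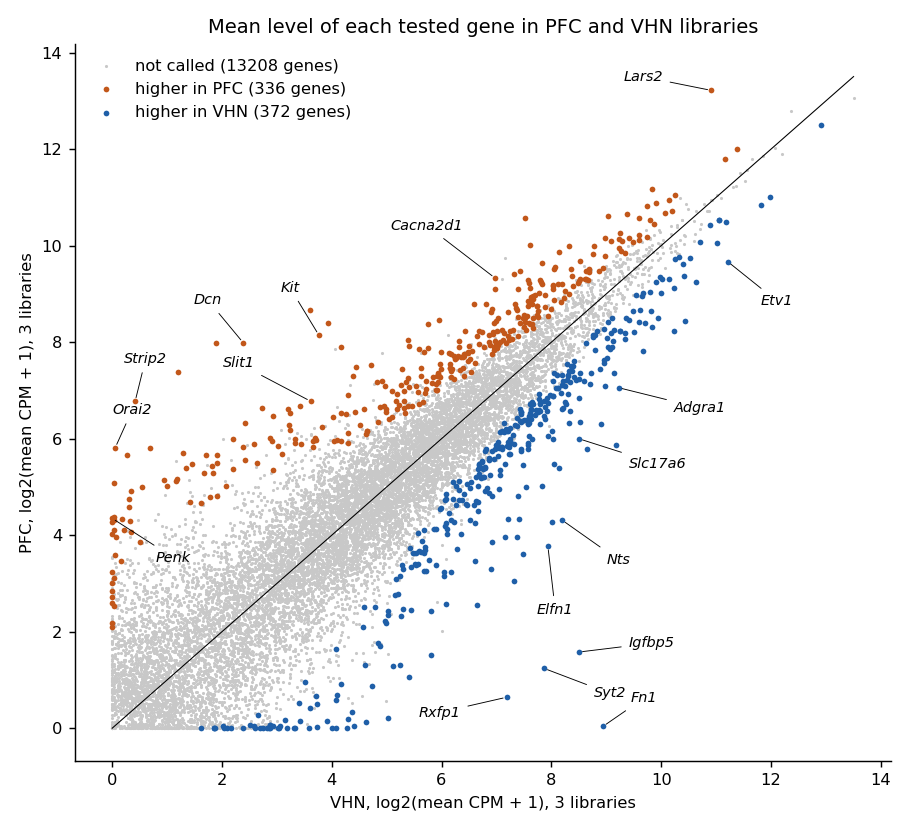
Mean level of the 13916 tested genes in the 3 PFC libraries (vertical axis) against the 3 VHN libraries (horizontal axis), both as log2(mean CPM + 1), with the 336 genes called higher in PFC in orange, the 372 called higher in VHN in blue and all others in grey. The line marks equal levels, and genes on either axis, such as Penk and Fn1, were near 0 in one population.

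The largest differences toward PFC were in genes that VHN cells hardly expressed. Penk (ENSMUSG00000045573), the precursor of the enkephalin opioid peptides, was at 0.780, 32.2 and 25.2 CPM in PFC and 0 in all VHN libraries. It was at least 347-fold higher in PFC (floor of 3 fragments over the VHN libraries, adjusted p = 0.00706), and PFC 1 lay far below the other PFC libraries. Orai2, a pore protein of store-operated calcium entry, was at 68.5, 68.5 and 28.9 CPM in PFC and 0, 0.119 and 0 in VHN, a ratio of 1460 (counting interval 405 to 12100, 2 fragments in VHN, adjusted p = 0.00654). All 3 PFC libraries carried it and VHN cells barely did. The kainate receptor subunit gene Grik4 was at 10.8, 23.8 and 13.7 CPM in PFC and 0, 0.0595 and 0 in VHN, a ratio of 862 (154 to 34100, 1 fragment in VHN, adjusted p = 0.00168). Strip2, a member of a phosphatase and kinase scaffold complex, was at 76.1, 70.7 and 179 CPM in PFC against 0, 0.893 and 0.117 in VHN (log2 fold change 8.33, SE 1.52, adjusted p = 0.00382). PFC 3 was the highest of the 6 for Strip2. Serpina3n, a secreted protease inhibitor, was at 23.7, 74.3 and 50.7 CPM in PFC against 0.315, 0.238 and 0.0583 in VHN (log2 fold change 7.86, SE 1.53, adjusted p = 0.00597).

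Other genes of this kind lost their call when single libraries were left out, and some of them rested mostly on 1 PFC library. The dopamine receptor gene Drd1 was at 27.8, 7.83 and 23.5 CPM in PFC and 0.0525, 0 and 0 in VHN, and the prolactin receptor gene Prlr at 12.1, 15.04 and 5.72 and 0.105, 0 and 0. The transcription factor gene St18 was at 0.260, 9.91 and 88.9 CPM in PFC and 0.0525, 0 and 0 in VHN, and the meiosis gene Tex15 at 0.520, 2.98 and 42.3 and 0, so PFC 3 carried most of both. Gm23583, a predicted gene, was at 5.37, 4.64 and 46.9 CPM in PFC and 0, 0.0595 and 0 in VHN, again highest in PFC 3. The cyclic nucleotide binding membrane protein gene Popdc3 went the other way within PFC, at 29.1, 14 and 0.938 CPM, with PFC 3 lowest, against 0.105, 0.0595 and 0 in VHN. All were called (adjusted p between 0.0105 and 0.0437). Leave-one-out fits lost the call of Drd1 without PFC 1, VHN 1, VHN 2 and VHN 3 (adjusted p up to 0.114), Prlr without PFC 2, VHN 2 and VHN 3 (adjusted p up to 0.0777), St18 without PFC 3 and VHN 2 (adjusted p up to 0.0583), Tex15 without PFC 3, VHN 1, VHN 2 and VHN 3 (adjusted p up to 0.11), Gm23583 without PFC 3, VHN 1, VHN 2 and VHN 3 (adjusted p up to 0.117) and Popdc3 without PFC 1, PFC 2, VHN 1, VHN 2 and VHN 3 (adjusted p up to 0.148).

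Toward VHN the largest differences included abundant secreted and synaptic proteins. Fibronectin, Fn1 (ENSMUSG00000026193), a matrix glycoprotein, was at 615, 575 and 285 CPM in VHN and 0.0867, 0 and 0 in PFC. Only 1 Fn1 fragment was counted over the 3 PFC libraries, so the ratio of 18700 has a counting interval of 3360 to 740000 (adjusted p = 0.000107). Igfbp5, a secreted binding protein of insulin-like growth factors, was at 471, 412 and 203 CPM in VHN and 4.16, 1.80 and 0 in PFC (log2 fold change −7.49, SE 0.962, adjusted p = 0.000311). Fn1 and Igfbp5 were both lowest in VHN 3 among the VHN libraries. Rxfp1, the relaxin receptor gene, was at 177, 141 and 115 CPM in VHN and 1.13, 0.554 and 0 in PFC (log2 fold change −7.97, SE 0.903, adjusted p = 0.000136). Syt2, a fast calcium sensor for vesicle release, was at 356, 223 and 119.6 CPM in VHN and 3.64, 0.346 and 0.0938 in PFC (log2 fold change −7.43, SE 0.800, adjusted p = 0.000107). The groups were far apart for both genes.

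Lower in level, but with the same pattern, were the matrix protein gene Thbs1 at 34.9, 21.3 and 4.14 CPM in VHN and 0.0867, 0 and 0 in PFC, and the adrenergic receptor gene Adra1b at 14.03, 6.43 and 16.3 and 0, 0.0693 and 0. The lipase family gene Lipm was at 25.9, 8.10 and 13.9 CPM in VHN and 0 in PFC, at least 206-fold higher, and the C2 domain gene Mctp2 at 20.6, 17.6 and 6.65 and 0, at least 191-fold higher. Gm12198, a predicted gene, was at 19.1, 4.88 and 8.99 CPM in VHN and 0 in PFC, at least 143-fold higher. The vesicle glycoprotein gene Sv2c, the hexokinase domain gene Hkdc1 and the scavenger receptor gene Scara3 completed the list, with fitted log2 fold changes of −7.68, −7.75 and −6.97. The adjusted p of these 8 genes lay between 0.00074 and 0.011, and each was also called in all 6 fits that left out 1 PFC or VHN library.

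**Figure D2:**
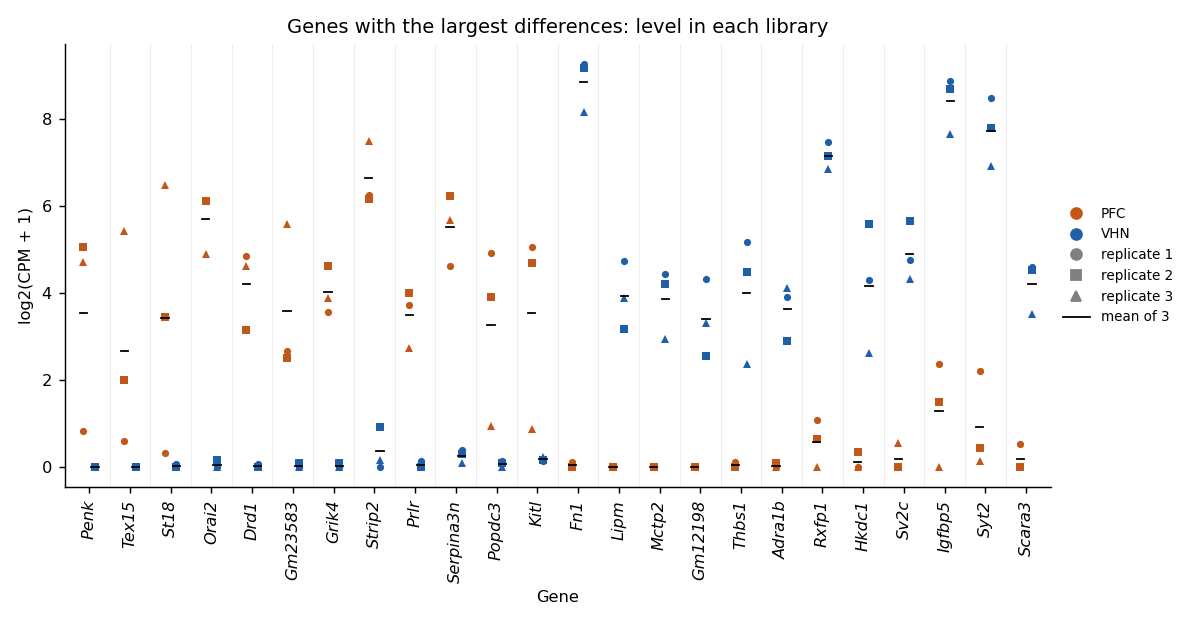
Level of the 12 genes with the largest called difference in each direction, as log2(CPM + 1) in each of the 3 PFC (orange) and 3 VHN (blue) libraries, with the marker shape giving the replicate and the bar the mean of 3. The left 12 genes are near 0 in VHN and the right 12 near 0 in PFC, and PFC replicates scatter widely for Penk, Tex15, St18, Popdc3 and Kitl.

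The vesicular glutamate transporters, which load transmitter into vesicles, went in opposite directions. Slc17a7 was at 965, 1024 and 1001 CPM in PFC and 643, 638 and 513 in VHN (log2 fold change 0.74, SE 0.146, adjusted p = 0.00706). Slc17a6, used mostly by subcortical glutamatergic neurons, was at 57.3, 37.9 and 93.5 CPM in PFC and 369.9, 427 and 290.1 in VHN (log2 fold change −2.53, SE 0.288, adjusted p = 0.000136). No PFC library reached the VHN range for either gene, in its direction. Of 12 transporter genes tested, 2 were higher in PFC, Slc17a7 and the glutamate uptake gene Slc1a2, and 3 in VHN, Slc17a6, Sv2c and Sv2b. Their called share was 41.7% and their median log2 fold change 0.24, against 5.09% and 0.01 over all genes tested. Without single libraries, the call ended for Slc1a2 without PFC 1, PFC 2, PFC 3, VHN 1 and VHN 2 (adjusted p up to 0.132) and Sv2b without PFC 2, PFC 3 and VHN 1 (adjusted p up to 0.0908).

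Neuropeptide genes differed in a few members. Nts (ENSMUSG00000019890), the precursor of neurotensin, was at 10.9, 14 and 31.6 CPM in PFC and 406, 273 and 199 in VHN (log2 fold change −3.96, SE 0.389, adjusted p = 9.97e-05). Every VHN library was several times above every PFC library. Of 14 precursor genes tested, Penk was higher in PFC, and Nts and the granin gene Chga were higher in VHN (21.4% called, median −0.60). Cholecystokinin, Cck, was not called at 672, 1008 and 625 CPM in PFC and 509.7, 381 and 266 in VHN (adjusted p = 0.124). Of 17 neuropeptide receptor genes, 1 was called, the somatostatin receptor gene Sstr4, at 31.2, 61.5 and 70.7 CPM in PFC and 131, 134 and 107 in VHN (−1.19, adjusted p = 0.034; list median −0.09). That share, 5.88%, lies near the 5.09% of all genes. Fits without 1 library lost the call of Sstr4 without PFC 1, PFC 2, VHN 1, VHN 2 and VHN 3 (adjusted p up to 0.123) and Chga without PFC 2, PFC 3, VHN 1 and VHN 2 (adjusted p up to 0.124).

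Among receptors for monoamines and acetylcholine, 4 of 28 tested genes were higher in PFC and Adra1b was higher in VHN (17.9% called, list median 1.005). Htr2c, a serotonin receptor, was at 142, 177 and 216 CPM in PFC and 5.36, 29.2 and 27.7 in VHN (log2 fold change 3.10, SE 0.548, adjusted p = 0.00307). VHN 1 was lowest of all, and the groups did not overlap. The muscarinic receptor gene Chrm1 was moderately higher in PFC, at 220.3, 327 and 294 CPM against 157, 184 and 158 in VHN (0.76, adjusted p = 0.0315). Chrm2, another muscarinic receptor gene, was at 13.4, 3.12 and 2.06 CPM in PFC and 0 in VHN, at least 104-fold higher (adjusted p = 0.0244). The serotonin receptor genes Htr1a (1.25, adjusted p = 0.446) and Htr4 (−1.33, adjusted p = 0.519) were not called. With 1 library left out, the PFC-side count fell to between 1 and 3 of the list. Such omissions ended the call of Chrm1 without PFC 2, PFC 3, VHN 1, VHN 2 and VHN 3 (adjusted p up to 0.142) and Chrm2 without PFC 1, VHN 1, VHN 2 and VHN 3 (adjusted p up to 0.0893).

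Orphan receptor genes were split. Gpr101 was at 1.39, 15.04 and 39.01 CPM in PFC and 352, 229 and 186 in VHN (log2 fold change −3.79, SE 0.694, adjusted p = 0.00381). Gprin3, which interacts with G proteins, was also higher in VHN, at 18.3, 24.1 and 12.2 CPM in PFC against 87.9, 98.1 and 102 (−2.40, adjusted p = 0.000548). Gpr22 went toward PFC, at 422, 405 and 449 CPM against 247, 242 and 219 in VHN (0.85, adjusted p = 0.0067). Gpr12 was at 19.4, 45.2 and 29.5 CPM in PFC and 1.05, 5.54 and 3.03 in VHN and was called (adjusted p = 0.0412), but in none of the 6 fits that left out 1 PFC or VHN library (up to 0.164 without VHN 1). These 4 were the called genes of 15 tested (26.7%) in a list of adenosine, cannabinoid and orphan receptor genes (median 0.35). Gprin3 was added to the list though it is no receptor.

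All called ionotropic glutamate receptor genes were higher in PFC. Of 16 tested, 3 were called (18.8%), Grik4, Grin2b and Gria4 (median 0.39). The NMDA receptor subunit gene Grin2b was at 1079.5, 1197 and 1102 CPM in PFC and 656, 595 and 555 in VHN (log2 fold change 0.90, SE 0.162, adjusted p = 0.0033). Its PFC values were close together and above those of VHN. The AMPA receptor subunit gene Gria4 was at 123, 98.6 and 80.5 CPM in PFC and 22.7, 31.7 and 35.6 in VHN (1.75, adjusted p = 0.0173). Of 18 GABA and glycine receptor genes, 1 was called toward PFC and 1, Gabrd, toward VHN (11.1% called, median 0.33). Gabrd, the delta subunit of extrasynaptic GABA receptors, was at 2.17, 0.277 and 0.0938 CPM in PFC and 13.4, 31.7 and 32.1 in VHN (−4.92, adjusted p = 0.0115). With 1 library left out, the call ended for Gria4 without PFC 1, VHN 1 and VHN 2 (adjusted p up to 0.0939) and Gabrd without PFC 2 (adjusted p 0.055).

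Calcium channel genes were mostly higher in PFC where they differed. Cacna2d1 (ENSMUSG00000040118), an auxiliary subunit that brings channels to the membrane, was at 493, 688 and 748 CPM in PFC and 93.4, 131 and 149 in VHN (log2 fold change 2.37, SE 0.246, adjusted p = 0.000107). The R-type pore gene Cacna1e was at 1362, 1711 and 1599 CPM in PFC and 364, 521 and 673 in VHN (log2 fold change 1.58, SE 0.215, adjusted p = 0.000471). The beta subunit gene Cacnb2 was at 245, 243 and 297 CPM in PFC and 16.3, 51.9 and 54.7 in VHN (log2 fold change 2.68, SE 0.441, adjusted p = 0.00172). All 3 were called in each fit that left out 1 PFC or VHN library, and VHN 1 was their lowest library. Of 20 genes tested, these 3 were higher in PFC, and the T-type pore gene Cacna1g was higher in VHN (−1.33, adjusted p = 0.0426; list median 0.36). Single left-out libraries ended the call of Cacna1g without PFC 2, PFC 3, VHN 1, VHN 2 and VHN 3 (adjusted p up to 0.132).

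Potassium channel genes went both ways, with 6 of 49 voltage-gated members higher in PFC and 5 in VHN (22.4% called, median 0.20). The beta subunit gene Kcnab3 was at 4.16, 7.34 and 22.3 CPM in PFC and 192, 169.8 and 173 in VHN (log2 fold change −3.99, SE 0.584, adjusted p = 0.000797). The modifying subunit gene Kcnf1 was at 43.2, 47.8 and 71.5 CPM in PFC and 180.4, 183 and 203 in VHN (−1.80, adjusted p = 0.00316). Kcna5, a delayed rectifier gene, was at 11.6, 3.51 and 3.62 CPM in VHN and 0 in PFC, at least 81.1-fold higher (adjusted p = 0.0109). On the other side the A-type channel gene Kcnd2 was at 164, 231 and 347 CPM in PFC and 112, 89.2 and 104 in VHN (1.28, adjusted p = 0.0082). Its relative Kcnd3 was not called, at 140.4, 229 and 71.3 CPM in PFC and 15.2, 45.8 and 62.8 in VHN (adjusted p = 0.0965). Other called members were Kcnip2, Kcna4, Kcnab1 and Kcnv1 toward PFC and Kcnn1 and Kcnip3 toward VHN. With 1 library left out, between 0 and 4 members were called toward PFC and between 3 and 6 toward VHN, and Kcnd2 without VHN 2 (adjusted p 0.0524) lost its call. Of 12 inward-rectifier and tandem-pore channel genes (16.7% called, median 0.65), Kcnk2 was higher in PFC and Kcnj9 in VHN. Omitting a library ended the call of Kcnk2 without PFC 3, VHN 1 and VHN 2 (adjusted p up to 0.0908) and Kcnj9 without PFC 1, PFC 2, PFC 3, VHN 1, VHN 2 and VHN 3 (adjusted p up to 0.167).

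A subunit and a partner of sodium channels were higher in VHN. Scn4b, a sodium channel beta subunit, was at 7.80, 4.16 and 13.4 CPM in PFC and 77.2, 89.1 and 47.7 in VHN (log2 fold change −3.08, SE 0.538, adjusted p = 0.00281). Fgf11, an intracellular sodium channel partner, was at 63.9, 48.3 and 17.6 CPM in PFC and 324, 225 and 245 in VHN (−2.61, adjusted p = 0.000911). The groups were separate for both genes. Both come from a list of 18 tested sodium channel and related genes (16.7% called, median −0.31). An unadjusted p under 0.05 was found for 3 of this list toward PFC and 4 toward VHN.

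**Figure D3:**
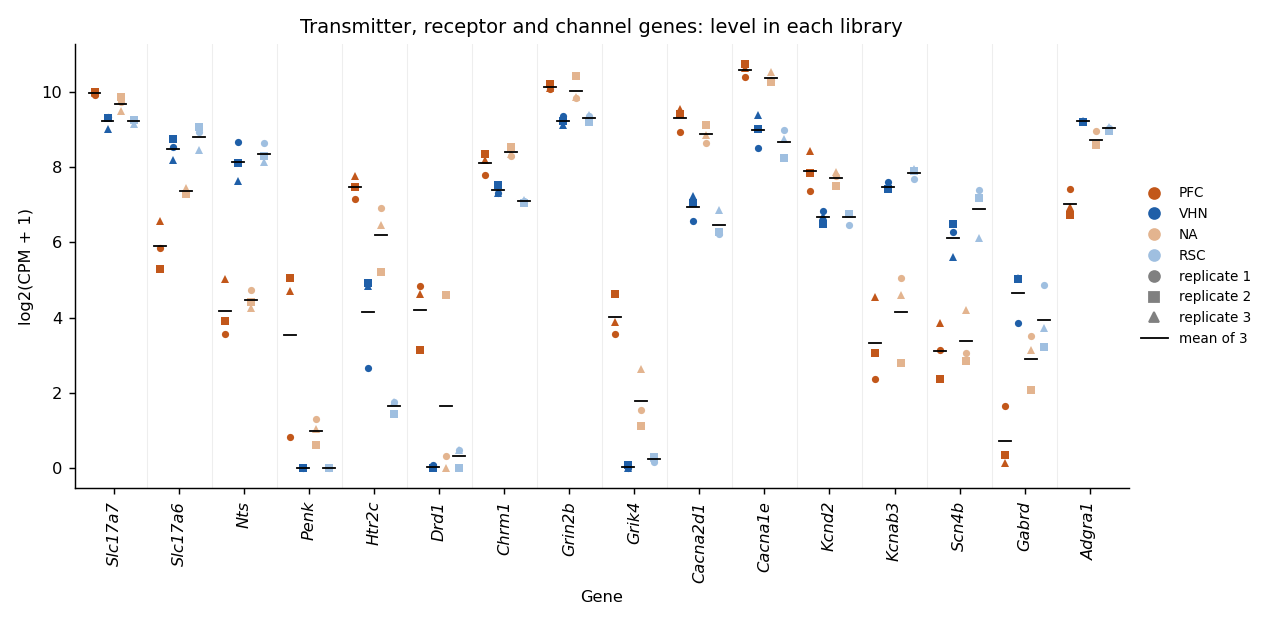
Level of 16 transmitter, receptor and channel genes as log2(CPM + 1) in each PFC, VHN, NA and RSC library (3 per population), with the marker shape giving the replicate and the bar the mean. Slc17a6, Nts, Kcnab3, Scn4b and Adgra1 are higher in VHN than in PFC, Htr2c, Grik4 and Cacna2d1 are higher in PFC, and PFC is the lowest of the 4 populations for Adgra1.

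Calcium-binding and calcium-signalling genes numbered 31, of which 7 were higher in PFC and 3 in VHN (32.3% called, median 0.32). The protein kinase C gene Prkca was at 567, 769 and 797 CPM in PFC and 116, 193 and 204 in VHN (log2 fold change 2.06, SE 0.256, adjusted p = 0.000232). Hpcal4, a neuronal calcium sensor, was at 729, 948 and 567 CPM in PFC and 221, 242 and 338 in VHN (1.48, adjusted p = 0.000892). Another sensor of the same family, Vsnl1, was at 2141, 2159.8 and 1862 CPM in PFC and 4388, 3878 and 3807 in VHN (−0.97, adjusted p = 0.00113), so relatives went in opposite directions. The kinase subunit genes Camk2g and Camk2a were also split. Camk2g was at 52.8, 45.5 and 90.4 CPM in PFC and 374, 226 and 185 in VHN (−2.06, adjusted p = 0.00113), and Camk2a at 1482, 2010.5 and 1416 and 1081, 1072 and 1084 (0.60, adjusted p = 0.0459). Calbindin, Calb1, was at 166, 352 and 141 CPM in PFC and 0.315, 37.9 and 49.4 in VHN. The groups did not overlap, but the spread within VHN was wide and the gene was not called (adjusted p = 0.163). Leaving out 1 library ended the call of Camk2a without PFC 1, PFC 2, VHN 1, VHN 2 and VHN 3 (adjusted p up to 0.207).

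Growth factor signalling included a ligand and its receptor on the same side. Kit (ENSMUSG00000005672), a receptor tyrosine kinase, was at 261, 344 and 244 CPM in PFC and 0.420, 15.7 and 21.6 in VHN (log2 fold change 4.49, SE 0.847, adjusted p = 0.00479). Kitl, which encodes stem cell factor, its ligand, was at 32.3, 24.8 and 0.844 CPM in PFC and 0.105, 0.119 and 0.175 in VHN (log2 fold change 7.10, SE 1.53, adjusted p = 0.0116). Kit was high in all PFC libraries, while Kitl was low in PFC 3. A receptor and coreceptor of the GDNF family went the other way. Ret was at 1.21, 0.624 and 0 CPM in PFC and 30.9, 4.29 and 12.9 in VHN (−4.68, adjusted p = 0.028), and Gfra1 at 49.8, 31.9 and 11.2 and 259, 158 and 141 (−2.59, adjusted p = 0.00384). These 4 were the called members among 29 growth factor and receptor kinase genes (13.8% called, median 0.70). Leave-one-out fits lost the call of Kitl without VHN 1 and VHN 2 (adjusted p up to 0.0665) and Ret without PFC 2, PFC 3 and VHN 1 (adjusted p up to 0.123).

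Axon guidance genes showed 7 of 48 members higher in PFC and 2 higher in VHN (18.8% called, median 0.44). Slit1, a repulsive ligand for Robo receptors, was at 103, 114 and 109 CPM in PFC and 5.62, 13.4 and 14.7 in VHN (log2 fold change 3.27, SE 0.526, adjusted p = 0.00139). Its receptor gene Robo2 was called in the same direction, while Robo1, at 99.8, 106 and 127 CPM in PFC and 2.47, 39.2 and 35.8 in VHN, was not (adjusted p = 0.09). Netrin receptor genes were divided. Unc5c, which mediates repulsion, was at 26.9, 65.8 and 30.8 CPM in PFC and 419, 219 and 208 in VHN (log2 fold change −2.78, SE 0.343, adjusted p = 0.000232). Neo1 was higher in PFC, at 164, 208 and 277 CPM against 104, 74.1 and 73.7 (1.36, adjusted p = 0.00381), as was Dcc, at 76.6, 60.6 and 11.6 against 0.105, 1.61 and 6.59 (4.16, adjusted p = 0.0399). The semaphorin receptor gene Nrp1 was at 81.1, 78.3 and 124 CPM in PFC and 355, 191 and 179 in VHN (−1.36, adjusted p = 0.00735), and the plexin genes Plxna1, Plxna2 and Plxnc1 were called toward PFC. In fits without 1 library, between 2 and 7 members were called toward PFC and between 1 and 3 toward VHN. The calls that ended were those of Dcc without PFC 1, PFC 2, VHN 1 and VHN 2 (adjusted p up to 0.155) and Nrp1 without VHN 1 (adjusted p 0.0567), among the members given with values.

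Of 53 synaptic adhesion genes, 10 were higher in PFC and 8 in VHN (34.0% called, median 0.30). Elfn1 (ENSMUSG00000048988), a postsynaptic protein that recruits presynaptic metabotropic receptors, was at 24.8, 5.82 and 7.31 CPM in PFC and 279, 269 and 184 in VHN (log2 fold change −4.27, SE 0.445, adjusted p = 0.000107). The teneurins, which bind latrophilins across the cleft, were split. Tenm3 was at 285, 271 and 117 CPM in PFC and 1172, 687 and 580.2 in VHN (−1.86, adjusted p = 0.00131), and Tenm1 at 181, 127 and 120.4 and 20.4, 32.6 and 29.1 (2.38, adjusted p = 0.00105). Tenm2 was called toward VHN as well. The netrin-G genes parted in the same way. Ntng1 was at 112, 72.7 and 76.7 CPM in PFC and 269.6, 207 and 224 in VHN (−1.42, adjusted p = 0.00115), and Ntng2 at 60.1, 64.8 and 26.9 and 3.41, 7.09 and 12.2 (2.74, adjusted p = 0.0327). Cntnap5a, of the neurexin superfamily, was higher in VHN (−1.89, adjusted p = 0.000557). Its relative Cntnap2 was called toward PFC. The latrophilin gene Adgrl2 was not called (0.18, adjusted p = 0.783). When a single library was omitted, between 3 and 8 members were called toward PFC and between 7 and 9 toward VHN, and the call of Ntng2 without PFC 1, PFC 2, VHN 1 and VHN 2 (adjusted p up to 0.139) ended.

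Of 24 cadherin and protocadherin genes, 3 were higher in PFC and 4 in VHN (29.2% called, median 0.75). Cdh20 was at 21.9, 14.5 and 3.94 CPM in PFC and 150.3, 85.3 and 122 in VHN (−3.15, adjusted p = 0.0017). Cdh6 was at 3.73, 9.98 and 11.6 CPM in PFC and 71.02, 65.4 and 58.1 in VHN (−2.94, adjusted p = 0.00223). Cdh7 was at 9.10, 12.4 and 2.34 CPM in PFC and 92.8, 45.9 and 56.1 in VHN (−3.02, adjusted p = 0.00326). These 3 are type II cadherins, which mediate calcium-dependent cell contact, and all of them separated the groups. Cdh22 was also called toward VHN (−3.24, adjusted p = 0.0114) and Pcdh1, Cdh11 and Pcdh7 toward PFC. With 1 library left out, between 0 and 2 of the list were called toward PFC, and Cdh22 without VHN 1 (adjusted p 0.0568) lost its call.

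Among 29 extracellular matrix genes, 3 were higher in PFC and 5 in VHN (27.6% called, median 1.02). The VHN-side count was also 5 in each fit that left out 1 PFC or VHN library. The balance of the sides depended on the tool. By DESeq2, which gave no adjusted p for Fn1, 8 were called toward PFC and 4 toward VHN, and by limma-voom 3 and 5. An unadjusted p under 0.05 was found for 10 toward PFC and 6 toward VHN. Besides Fn1, Igfbp5 and Thbs1, Sparcl1, a synapse-promoting matrix protein, was at 377, 246 and 419.6 CPM in PFC and 1446, 1429 and 1272 in VHN (log2 fold change −1.99, SE 0.233, adjusted p = 0.000136). Nell2, a secreted ligand of Robo3, was at 586, 622 and 678 CPM in PFC and 199, 173 and 199 in VHN (log2 fold change 1.73, SE 0.210, adjusted p = 0.000217). Spock1 and Col25a1 were also called toward PFC and Igfbp4 toward VHN.

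Presynaptic release genes were divided too, with 4 of 38 higher in PFC and 5 in VHN (23.7% called, median 0.27). The complexin genes, whose products clamp and promote fusion, went apart. Cplx2 was at 807, 790.1 and 443 CPM in PFC and 63.2, 195 and 218 in VHN (log2 fold change 2.10, SE 0.372, adjusted p = 0.00313), whereas Cplx1 was called toward VHN. Among synaptotagmins, Syt2 and Syt4 were higher in VHN and Syt17 in PFC. Syt4 was at 393, 338 and 284 CPM in PFC and 921, 826 and 754 in VHN (−1.30, adjusted p = 0.00074). Vamp2 and Syn2, of the vesicle membrane, were called toward PFC. In fits without 1 library, between 2 and 6 of the list were called toward PFC and 4 or 5 toward VHN.

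Of 56 transcription factor genes tested, 11 were higher in PFC and 6 in VHN (30.4% called, median 0.20). Etv1 (ENSMUSG00000004151), an ETS factor typical of deep cortical projection neurons, was at 772, 562 and 1101 CPM in PFC and 2550.2, 2466 and 2124 in VHN (log2 fold change −1.55, SE 0.179, adjusted p = 0.000136). Its relative Etv5 was at 258, 125 and 135 CPM in PFC and 602, 458 and 349 in VHN (−1.44, adjusted p = 0.00314). Satb1, Nr4a2, Tshz2 and Tshz3 were also called toward VHN. In the other direction, the zinc finger factor gene Zfhx4 was at 6.41, 76.3 and 81.3 CPM in PFC and 0.105, 0.774 and 0.934 in VHN (6.49, adjusted p = 0.00298). Zbtb20, needed for the CA1 fate, was at 48.97, 551 and 609 CPM in PFC and 0.735, 16.2 and 16.7 in VHN (log2 fold change 5.17, SE 0.937, adjusted p = 0.00359). PFC 1 was the lowest PFC library for both, yet above every VHN library. The neuronal factor gene Neurod6 was at 278, 363 and 542 CPM in PFC and 61.3, 177 and 118 in VHN (1.73, adjusted p = 0.00753). Lhx2, a LIM homeobox factor, was at 34.4, 63.8 and 3.00 CPM in PFC and 0.158, 0.536 and 3.03 in VHN (4.76, adjusted p = 0.0221), and PFC 3 overlapped VHN 3. Fezf2 (−0.44, adjusted p = 0.422) and Bcl11b (adjusted p = 0.955), which specify subcortical projection neurons in neocortex, were not called. When a single library was omitted, between 4 and 8 of the list were called toward PFC and between 4 and 6 toward VHN, and the call of Lhx2 without PFC 2, VHN 1 and VHN 2 (adjusted p up to 0.117) ended. By limma-voom, Zbtb20 missed the threshold (adjusted p = 0.0543).

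Most marker genes of the neighbouring CA1 field were higher in PFC. Of 10 tested, 8 were called toward PFC and 0 toward VHN, also by DESeq2, and 6 and 0 by limma-voom (median log2 fold change 2.35, against 0.01 over all genes). Their summed level was 2003, 3185 and 2612 CPM in PFC and 604, 898 and 935 in VHN, with no overlap. Wfs1, the wolframin gene, was at 135, 359 and 203 CPM in PFC and 46.4, 52.2 and 42.1 in VHN (log2 fold change 2.31, SE 0.413, adjusted p = 0.00326). Man1a, a mannosidase gene, was at 407, 769 and 463 CPM in PFC and 69.97, 152 and 150.1 in VHN (log2 fold change 2.14, SE 0.296, adjusted p = 0.000531). Dcn, encoding the proteoglycan decorin, was at 346, 322 and 92.6 CPM in PFC and 1.84, 7.74 and 3.09 in VHN (log2 fold change 5.91, SE 1.29, adjusted p = 0.0125). VHN cells thus carried Wfs1 and Man1a at a lower level, while Dcn was near 0 there. Zbtb20, Ccn3, Spink8 and Fibcd1 were among the other called members. Those not called were Mpped1, at 107, 146 and 157 CPM in PFC and 227, 210.4 and 149 in VHN (log2 fold change −0.52, adjusted p = 0.276), and Pou3f1 (−0.17, adjusted p = 0.863). The part of cells from CA1 in this difference was not tested. With 1 library left out, between 4 and 7 of the 10 were called toward PFC and 0 toward VHN, and without replicate 3 of both populations 4 were. The call ended for Dcn without VHN 1 and VHN 3 (adjusted p up to 0.0638).

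Other regional lists had smaller called shares than the CA1 list. The medians of the CA3 and CA2 list (2.15) and the dentate granule list (1.04) lay toward PFC, as for CA1 (2.35). Of 11 CA3 and CA2 markers, Grik4, St18 and Cpne7 were higher in PFC and Prkcd in VHN (36.4% called, median 2.15). Cpne7, a copine, was at 239, 316 and 149 CPM in PFC and 25, 66.98 and 66.3 in VHN (2.15, adjusted p = 0.0106), and its call ended without PFC 2 (adjusted p = 0.05003). None of 7 dentate granule markers was called by edgeR or DESeq2, 1 was by limma-voom and 3 had an unadjusted p under 0.05, and Prox1, C1ql2 and Dsp were at 0 in all PFC libraries. Of 10 presubiculum, entorhinal and deep cortical markers, Nr4a2, Lypd1 and Crym were higher in VHN (30.0% called, median −0.74). Lypd1, a modulator of nicotinic receptors, was at 90.2, 18.99 and 52.6 CPM in PFC and 419.9, 465 and 311 in VHN (−2.89, adjusted p = 0.0198). Among 18 genes that earlier reports found to vary within subiculum, 6 were higher in VHN, among them Nts, Fn1, Gpr101 and Slc17a6. Ntng2 was higher in PFC, and 38.9% of this list were called (median −0.14). Such reports may draw on cells like these, so this count is not independent evidence of a direction. Without single libraries, the call ended for Prkcd without PFC 1, PFC 2, PFC 3, VHN 1 and VHN 2 (adjusted p up to 0.18), Nr4a2 without PFC 2 and VHN 1 (adjusted p up to 0.0802), Lypd1 without PFC 2, PFC 3 and VHN 2 (adjusted p up to 0.077) and Crym without PFC 2, PFC 3, VHN 1, VHN 2 and VHN 3 (adjusted p up to 0.17).

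Genes that respond to activity and handling were mixed. Of 23 immediate early genes, 2 were higher in PFC and 3 in VHN (21.7% called, median 0.75). Ier5 was at 37.1, 44.5 and 46.98 CPM in PFC and 188, 179 and 167 in VHN (log2 fold change −2.05, SE 0.240, adjusted p = 0.000136), and Fosl2, an AP-1 subunit, at 118, 82.04 and 112 and 403, 319.6 and 204 (−1.57, adjusted p = 0.00104). Nr4a3, a nuclear receptor gene, went toward PFC, at 73.1, 74.8 and 41.4 CPM against 4.46, 18.5 and 4.08 (2.81, adjusted p = 0.028). Fos, a common marker of recent activity, was not called at 14.6, 10.4 and 15.4 CPM in PFC and 2.68, 7.80 and 7.82 in VHN (adjusted p = 0.488). Heat shock genes and other stress genes (19 tested) included the chaperone genes Dnaja1 (−0.86, adjusted p = 0.00772) and Hsp90ab1 (−0.52, adjusted p = 0.0198) higher in VHN and 0 called in PFC by edgeR, 1 by DESeq2 and by limma-voom (median −0.55). Of this list 10.5% were called by edgeR, and an unadjusted p under 0.05 was found for 2 toward PFC and 8 toward VHN. Of 36 genes for mitochondrial enzymes and aminoacyl-tRNA synthetases, 6 enzyme genes were higher in VHN and 1 synthetase gene in PFC (19.4% called, median −0.34). Ndufa4, a respiratory chain protein gene, was at 90.7, 104 and 101 CPM in PFC and 297, 286 and 303 in VHN (log2 fold change −1.59, SE 0.243, adjusted p = 0.00105). The ATP synthase gene Atp5a1 (−0.97, adjusted p = 0.000987) and the oxidase gene Cox6c (−1.58, adjusted p = 0.00074) went with it. Lars2, the mitochondrial leucyl-tRNA synthetase, was the exception at 9327, 6987 and 12300.0 CPM in PFC and 2719.7, 2103 and 951 in VHN (log2 fold change 2.31, SE 0.302, adjusted p = 0.000329). How reads shared with other loci were counted is not given in the sources used here, so the Lars2 level is uncertain. Fits without 1 library lost the call of Nr4a3 without PFC 1, PFC 2, VHN 1 and VHN 3 (adjusted p up to 0.125) and Hsp90ab1 without PFC 1, PFC 2 and VHN 2 (adjusted p up to 0.116).

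Most markers of other cell types were too low to test. Of 8 interneuron markers tested, 0 passed by edgeR or limma-voom, 2 passed by DESeq2 toward VHN and 4 had an unadjusted p under 0.05. Of 2 microglia markers, 0 passed by edgeR, DESeq2 or limma-voom and 1 had an unadjusted p under 0.05. Slc1a2 was the called member of 6 astrocyte markers (16.7%), and 1 of 4 oligodendrocyte markers (25%) was called toward VHN, against 5.09% of all genes. Rgs5, a G protein regulator known from pericytes and the 1 endothelial or mural marker tested, was at 83.5, 54.5 and 91.8 CPM in PFC and 1.31, 2.02 and 21.5 in VHN (3.21, adjusted p = 0.0316). The interneuron gene Gad2 stood at 0.520, 0.416 and 0.469 CPM in PFC and 0.158, 0.238 and 91.9 in VHN (adjusted p = 0.146). Of these 6 libraries VHN 3 alone carried it. With no filter on low counts Gad2 passed the test toward VHN (adjusted p = 1.32e-12), while without VHN 3 its log2 fold change was 1.21. No oligodendrocyte precursor marker was abundant enough to test, and Pdgfra and Olig2 were at 0 in all 6. With 1 library left out, the call of Rgs5 ended without PFC 1, PFC 2, PFC 3, VHN 1 and VHN 2 (adjusted p up to 0.121).

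The called genes ordered the libraries within each population unevenly. Among the 336 genes higher in PFC, VHN 1 was the lowest VHN library in 158 (47.0%), against 30.8% of all genes tested, and VHN 3 the highest in 149 (44.3%), against 34.1%. Among the 372 genes higher in VHN the order was turned around, with VHN 1 highest in 162 (43.5%), against 32.0% of all genes, and VHN 3 lowest in 172 (46.2%), against 32.8%. VHN 1 was thus most often the library furthest from PFC, and VHN 3 the nearest, in both sets. Kit is such a gene. For Nptx1, VHN 1 was furthest but VHN 2 nearest. Nptx1, a secreted pentraxin that clusters glutamate receptors, was at 326, 446 and 233 CPM in PFC and 0.630, 26.3 and 16.05 in VHN (log2 fold change 4.55, SE 0.778, adjusted p = 0.00242). PFC 1 was the lowest PFC library in 158 (47.0%) of the genes higher in PFC, against 30.9% of all genes. These shares describe the libraries that also made the calls and carry no test.

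The same genes were then followed in the NA and RSC libraries, which share no sample with the comparison. NA 2, the outlying library on principal components 1 and 2, is among them. The interneuron gene Gad2 was at 5.96, 7.40 and 0.156 CPM in NA and 0, 43.3 and 177 in RSC. The part of interneuron RNA in the values below was not tested. Of the 336 genes higher in PFC, 320 (95.2%) were higher in NA than in RSC, and of the 372 higher in VHN 353 (94.9%) were lower in NA than in RSC. Over all genes tested, 9076 (65.2%) had the same sign in both comparisons. The differences were smaller there, with a median log2 fold change of 1.18 (NA minus RSC) for the first set and −0.985 for the second. All 4 populations share 1 estimate of the spread per gene, and the sets were chosen for large values in PFC and VHN.

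Some single genes had a fitted difference of another size or sign between NA and RSC, though only 1 gene passed the test of the departure. Chrm2 was at 1.86, 1.61 and 0 CPM in NA and 4.27, 1.38 and 15.6 in RSC. Orai2 was at 7.77, 4.39 and 13.5 CPM in NA and 0, 0.0551 and 11.5 in RSC, with RSC 3 inside the NA range. Kitl was at 1.18, 1.61 and 1.04 CPM in NA and 1.73, 0.110 and 2.51 in RSC, whereas its receptor gene Kit was at 186, 368 and 193 and 1.21, 0.0551 and 0.483, so that each NA library was above every VHN and RSC library. The NA minus RSC log2 fold change was −2.61 for Chrm2 and −0.19 for Kitl, opposite in sign to PFC minus VHN, and 1.14 for Orai2, of the same sign. None of these 3 was called between NA and RSC (adjusted p between 0.361 and 0.949), and the departure from PFC minus VHN did not pass for them (adjusted p 0.287 for Chrm2, 0.295 for Kitl and Orai2). The difference of the 2 differences passed the test in 1 gene (0.00719% of those tested), and 1169 genes had an unadjusted p under 0.05. This was Adgra1 (ENSMUSG00000025475), an orphan adhesion G protein-coupled receptor gene, at 170.0, 105 and 121 CPM in PFC and 596, 593 and 604 in VHN (log2 fold change −2.18, SE 0.193, adjusted p = 4.42e-05). It was at 495, 383 and 388 CPM in NA and 529.5, 503 and 538 in RSC, so PFC was below the other 3 populations. The difference of differences was −1.87 on the log2 scale (adjusted p = 0.0286). Leaving out 1 library moved its adjusted p to 0.0602 without NA 1, 0.0958 without PFC 2, 0.145 without RSC 1, 0.0963 without RSC 2, 0.133 without RSC 3, 0.126 without VHN 2 and 0.122 without VHN 3, while its size stayed between −2.09 and −1.73.

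**Figure D4:**
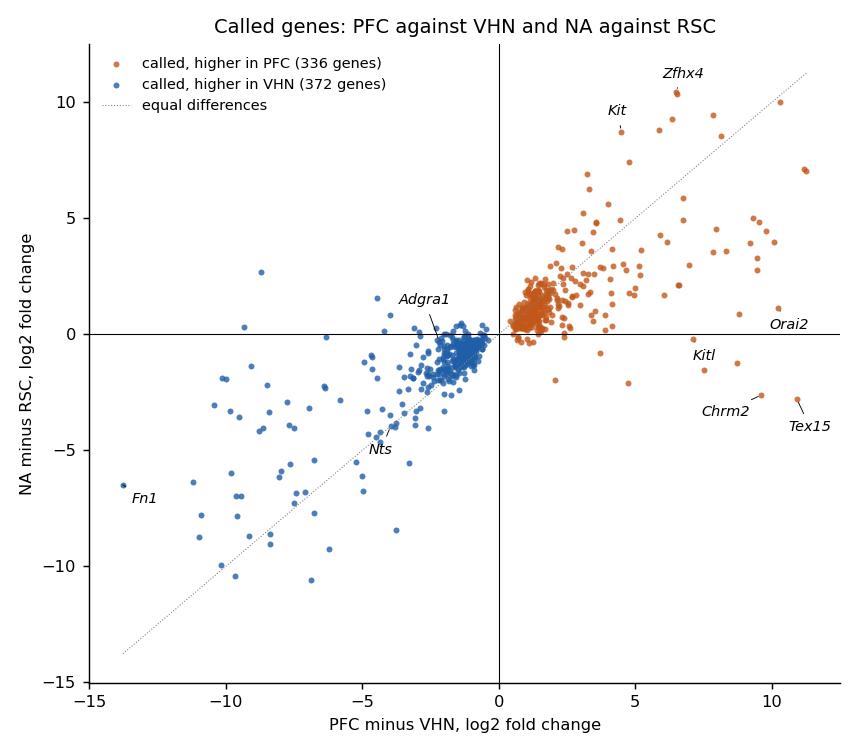
Log2 fold change of NA minus RSC (vertical axis) against that of PFC minus VHN (horizontal axis) for the 336 genes called higher in PFC (orange) and the 372 called higher in VHN (blue), with the dotted line at equal differences. Most points lie in the quadrants of equal sign, 320 and 353 of them, and fitted values of genes at 0 in one population depend on the prior count of the fit.

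Single subiculum cells were looked at for genes of both sides, since no label ties a well to a target. The wells come from 4 plates, and the 348 with 1000 or more detected genes were used, at 112401 counts in the median well. Nts was counted in 245 wells (70.4%, exact binomial 95% interval 65.3 to 75.2), Rxfp1 in 164 (47.1%, 41.8 to 52.5) and Syt2 in 121 (34.8%, 29.8 to 40). Kit was counted in 92 wells (26.4%, 21.9 to 31.4). Gad1 and Gad2, inhibitory markers, were counted in 3 (0.862%) and 2 (0.575%). Penk and Drd1, far higher in PFC libraries, were counted in 7 wells each (2.01%, 0.812 to 4.1). The intervals cover counting of wells only.

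Genes of one side tended to be found in the same wells. For this, 4 named genes of the PFC side and 8 of the VHN side were taken, those that differed by 3 or more on the log2 scale and had a count in at least 20% of wells, a choice made after the values were seen. Spearman's rho across the 348 wells lay between 0.28 and 0.54 (median 0.43) for the 6 pairs within the PFC side and between 0.04 and 0.74 (median 0.35) for the 28 pairs within the VHN side. It lay between −0.50 and −0.02 (median −0.29) for the 32 pairs across sides. Rxfp1 and Syt2 formed the pair with the highest value and Nts and Nptx1 the pair with the lowest. Wells share plates and differ in depth, so these values are descriptions with no test.

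**Figure D5:**
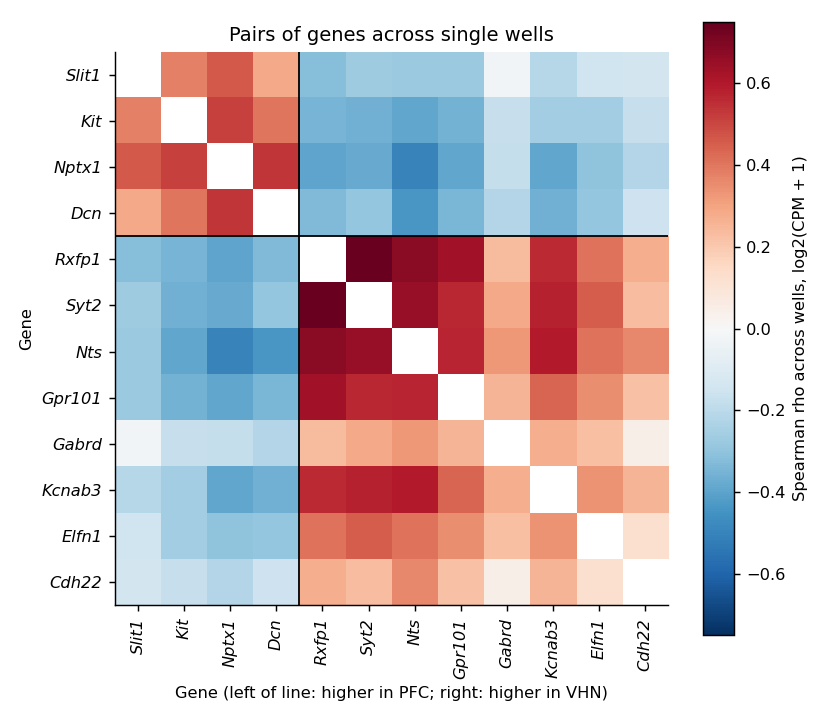
Spearman's rho between pairs of genes across 348 wells, from log2(CPM + 1), for 4 genes higher in PFC libraries (first rows and columns) and 8 genes higher in VHN libraries (after the line). Red marks positive and blue negative values, which run from −0.50 to 0.74, and all 32 pairs across the line are below 0.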

How the data were processed

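The bulk values are the authors' deposited raw fragments per gene and library, expected counts without normalization per the file headers, which are those of a Cuffdiff read-group tracking table. The genome build was mm9, per the submitters' processing notes, and aligner, versions and annotation are not given in the sources used here. Among expected counts over 0, 8.51% had a fractional part, and every value was rounded. The single-cell values, as deposited, are whole-number counts for each gene in each well. The bulk table had 37607 rows for genes, 87.5% of them with a symbol, besides 92 spike-in rows, all 0, that were left out. Replicate numbers start at 0 in the table and at 1 in the labels, so library names here assume an equal order, on which no test depends. The 178 entries with status FAIL were kept.

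In edgeR 4.0.16, filterByExpr (smallest count 10) selected the genes, TMM scaled the libraries, and 1 quasi-likelihood model took all 12 bulk libraries. Its residual degrees of freedom were 8 and its common biological coefficient of variation 0.736. The model was checked on simulated data. Calls use a Benjamini-Hochberg adjusted p under 0.05 over 13916 genes, and each adjusted p in the text is from this edgeR test unless another tool is named. limma 3.58.1, DESeq2 1.42.0, other scalings and filters and left-out libraries were alternatives. In the leave-one-out results above for gene lists and for calls of single genes between PFC and VHN, a PFC or VHN library was left out. Levels are CPM computed here. A ratio against a population at 0 fragments used a floor of 3 fragments over its libraries, with 95% exact counting intervals for 1 to 3 fragments. Intervals and floors cover counting error only.

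Named genes are the 12 largest fitted changes per direction among called genes with a symbol, no overlap and a mean of 10 CPM or more in the higher population, plus up to 4 called members of each of 36 gene lists and preset members of interest. Further called members are given by name only, and some selected genes are not reported here. The lists and the comparison were chosen with earlier results of these data known. Same-numbered PFC and VHN libraries did not deviate together over all genes (r between −0.0295 and −0.016). Differently numbered ones did not either (r between −0.0024 and 0.0201). A pairing that affects few genes would not show in these values, so whether replicate numbers pair samples is not settled.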

Additional observations from a re-analysis of the deposited data

Results flagged for a closer look

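Adgra1 was singled out because its difference between PFC and VHN departed from its difference between NA and RSC in a test of the departure itself. The difference of differences was −1.87 on the log2 scale (edgeR adjusted p = 0.0286), and PFC was the lowest of the 4 populations.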

How the results depend on the processing

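The main count of 708 genes became 1125 with no filter, 1390 by DESeq2, 1104 without NA 2 and 343 without replicate 3 of both populations, and it lay between 330 and 1104 when 1 of the 12 libraries was left out. Of the 1390, 702 were shared with the 708. Under the other alternatives it lay between 569 and 871. Since no label states that replicate numbers pair samples, the fit with the replicate number as a block is given here only. It called 664 genes, 607 of them among the 708, and 582 (499 shared) with the 6 PFC and VHN libraries alone. The count of genes whose difference departs from that between NA and RSC was 1, and it became 0 with no scaling, 192 with no filter, 88 by DESeq2, 3 by limma-voom, 3 without replicate 3 of both populations and 0 to 11 when 1 library was left out. The share of wells with Kit fell from 26.4% to 16.5% when wells were thinned to 20000 counts.

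Named genes were not followed in the fits without NA 1, NA 3, RSC 1, RSC 2 or RSC 3. Of 111 called genes that the naming rule selected, 0 changed direction under the other alternatives. Under each of these that gave an adjusted p, 60 were called. DESeq2 gave none for Orai2, Gm23583 and Fn1. Some genes that were not called passed elsewhere. With no filter on low counts these were Cck (adjusted p = 0.000123), Kcnd3 (3.35e-06), Calb1 (5.14e-13), Robo1 (1.21e-05), Sst (0.0205), Gad1 (0.000305) and Gad2 (1.32e-12). By limma-voom Cck (0.0462), Kcnd3 (0.0255), Calb1 (0.0104) and Robo1 (0.0136) passed, and by DESeq2 Pvalb (0.00968) and Gad1 (5.72e-06). Cck also passed without NA 2 (0.0251) and with the 6 PFC and VHN libraries alone (0.0452, and 0.032 with the block), and Fezf2 without PFC 1 (0.0394). Direction turned in 5 genes that were not called. With 1 PFC or VHN library left out, the log2 fold change of Sst lay between −11.21 and 3.21, of Gad2 between −6.60 and 1.21, of Aqp4 between −7.16 and 5.35, of Bcl11b between −0.31 and 0.25 and of Adgrl2 between −0.0755 and 0.35. The positive ends of the first 3 came without VHN 3, and without replicate 3 of both populations they were at 3.77, 1.19 and 5.95. For Bcl11b the value was −0.0086 with no scaling, −0.0306 by limma-voom and −0.38 without replicate 3 of both populations. Gad1 gave no value without VHN 3, nor Prox1 without VHN 2, as no fragment was left. Depth limits genes with few fragments in one population, whose ratios have wide counting intervals.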
